A study of Homo sapiens with 6 samples.

Results

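The potassium channel genes described here are the protein-coding genes whose symbols begin with KCN, apart from 1 left out, 94 of the 20163 protein-coding genes of the hg19 annotation used. The choice of a member went by its name and used none of its values. They comprise 40 voltage-gated subunits (KCNA, KCNB, KCNC, KCND, KCNF, KCNG, KCNH, KCNQ, KCNS and KCNV), 15 inward rectifiers (KCNJ), 15 tandem-pore K2P channels (KCNK), 7 ion-regulated channels, which respond to calcium, sodium or pH (KCNM, KCNN, KCNT and KCNU), and 17 auxiliary genes (KCNAB, KCNE, KCNIP, KCNMB and KCNRG).

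The study asked where the histone demethylase KDM3B binds in colorectal cancer cells and where dimethylated lysine 9 of histone H3 (H3K9me2), a mark of repressed chromatin that KDM3 enzymes erase, lies once KDM3A and KDM3B are depleted. ChIP-seq was done in HCT116, an established colorectal cancer line grown in DMEM with fetal bovine serum. HCT116/Scrsh cells (Scrsh for short) carried a scramble shRNA. HCT116/ABsh-1 cells (ABsh-1 for short) carried an shRNA that targets KDM3A together with KDM3B, although the sample labels describe an siRNA transfection. Each antibody gave 1 list of enriched regions in each of these cell populations. With 1 library per list, 1 cell line and 1 shRNA there was no replicate error against which to test a difference, so all values below are given side by side without a test. The lists carried no read numbers, and the depth behind each region is unknown.

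Potassium channels let potassium ions leave or enter a cell through a pore built from several subunits, and a short selectivity filter at the narrowest part of the pore chooses potassium over sodium. Voltage-gated and K2P channels set the resting potential and the firing of neurons, inward rectifiers hold the membrane potential of heart, brain and kidney cells, and most members are known mainly from excitable tissue. In the colon a smaller set works in the epithelium, where KCNQ1 with KCNE3, KCNN4 and KCNMA1 recycle or secrete potassium during fluid transport.

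In many members the filter is encoded by a similar stretch of codons, which marks the same functional place. The coding exons of the canonical transcript were searched in frame, on the coding strand, for ACNGTNGGNTANGGN, ACNATNGGNTANGGN and ACNCTNGGNTANGGN, which differ only in the second codon (valine, isoleucine or leucine). A filter spelled by other codons is missed, and a match is only a match of letters. A match was found in 55 of the 94 potassium channel genes, none of them auxiliary. It was found in 70 of 19881 protein-coding genes with a coding sequence (0.352%). An H3K9me2 region reached these codons in 15 of the 55 members in ABsh-1 (27.3%) and in 4 of them, KCNC1, KCNG4, KCNJ12 and KCNJ4, in Scrsh (7.27%). Of all coding bases of the 94 members, 21.8% in ABsh-1 and 2.83% in Scrsh lay in such regions. A site counted when any of its bases was reached, so a share of sites and a share of bases are not like measures. No KDM3B region reached them in either list. The sites of 9 of the 15 are given here on hg19 on the coding strand with the filter codons in capitals.
KCNF1, chr2:11053645-11053689, plus strand: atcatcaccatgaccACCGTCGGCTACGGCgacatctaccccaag
KCNG1, chr20:49620819-49620863, minus strand: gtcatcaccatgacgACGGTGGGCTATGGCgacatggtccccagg
KCNG4, chr16:84256102-84256146, minus strand: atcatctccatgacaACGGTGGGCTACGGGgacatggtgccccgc
KCNJ12, chr17:21319066-21319110, plus strand: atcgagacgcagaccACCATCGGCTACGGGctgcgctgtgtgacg
KCNJ3, chr2:155555699-155555743, plus strand: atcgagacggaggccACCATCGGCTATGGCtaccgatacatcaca
KCNJ4, chr22:38823709-38823753, minus strand: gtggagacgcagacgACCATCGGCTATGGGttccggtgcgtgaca
KCNJ5, chr11:128781598-128781642, plus strand: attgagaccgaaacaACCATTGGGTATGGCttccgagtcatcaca
KCNJ9, chr1:160054163-160054207, plus strand: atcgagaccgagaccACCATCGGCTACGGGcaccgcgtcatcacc
KCNQ1, chr11:2604662-2604706, plus strand: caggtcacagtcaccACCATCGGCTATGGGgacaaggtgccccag
The inward rectifiers shown and KCNQ1 carry the isoleucine form, and KCNF1 and the KCNG genes the valine form. By class the H3K9me2 regions of ABsh-1 reached the codons in 7 of 32 voltage-gated members with a match, 6 of 12 inward rectifiers, 2 of 9 K2P channels and 0 of 2 ion-regulated channels.

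The H3K9me2 list held 11645 regions in Scrsh and 88855 in ABsh-1, and the KDM3B list 17638 and 8046. The potassium channel genes took 96 and 853 of the H3K9me2 regions and 66 and 30 of the KDM3B regions, counting regions in a gene body or within 5 kb of a transcription start site (TSS). Their median width was 100 bp in the first 3 lists and 200 bp in the H3K9me2 list of ABsh-1, as in the lists as a whole. Because the lists differ so much in size, each count below is also read against all protein-coding genes in the same list. It is read as well against genes of similar size and base composition (within a factor of 1.5 in length and 2 percentage points in GC content).

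Around their TSSs the potassium channel genes were more often marked by H3K9me2 and less often held KDM3B than protein-coding genes at large. In Scrsh, H3K9me2 lay within 5 kb of a TSS in 23 of 94 members (24.5%), against 10.2% of all protein-coding genes and 10.2% of genes of similar window length and GC content. In ABsh-1 it did so in 75 members (79.8%), against 49.2% and 56.3%. KDM3B lay there in 24 members (25.5%) in Scrsh, where the background was 35.0% and similar genes gave 36.9%. In ABsh-1 it was 13 members (13.8%), where the background was 19.2% and similar genes gave 20.3%. The similar genes were found for 93 members, with a median of 1215 genes each. The remaining member, whose joined windows have few counterparts, was left out of that comparison.

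The members marked in Scrsh were marked again in ABsh-1. All 23 (24.5% of members, background 9.06%) had an H3K9me2 region in the window in both lists. Another 52 had one in ABsh-1 alone (55.3%, background 40.2%) and 19 in neither (20.2%, background 49.6%). The 23 were KCNA3, KCNA6, KCNA7, KCNC1, KCNC2, KCND3, KCNE1, KCNE3, KCNH1, KCNH2, KCNJ1, KCNJ10, KCNJ11, KCNJ12, KCNJ5, KCNK16, KCNK17, KCNK9, KCNQ3, KCNS1, KCNT2, KCNV1 and KCNV2. Among all genes 1827 of the 2066 marked in Scrsh were marked in both. More window bases lay in H3K9me2 regions in ABsh-1 than in Scrsh for 73 members (background 48.4%). The reverse held for 1 member, KCNJ1, with 400 and 300 bp. Cut to the 11645 regions with the highest score, the ABsh-1 list marked 29 members (30.9%) against 23 in Scrsh (24.5%), and 17.0% against 10.2% of all genes.

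**Figure D1:**
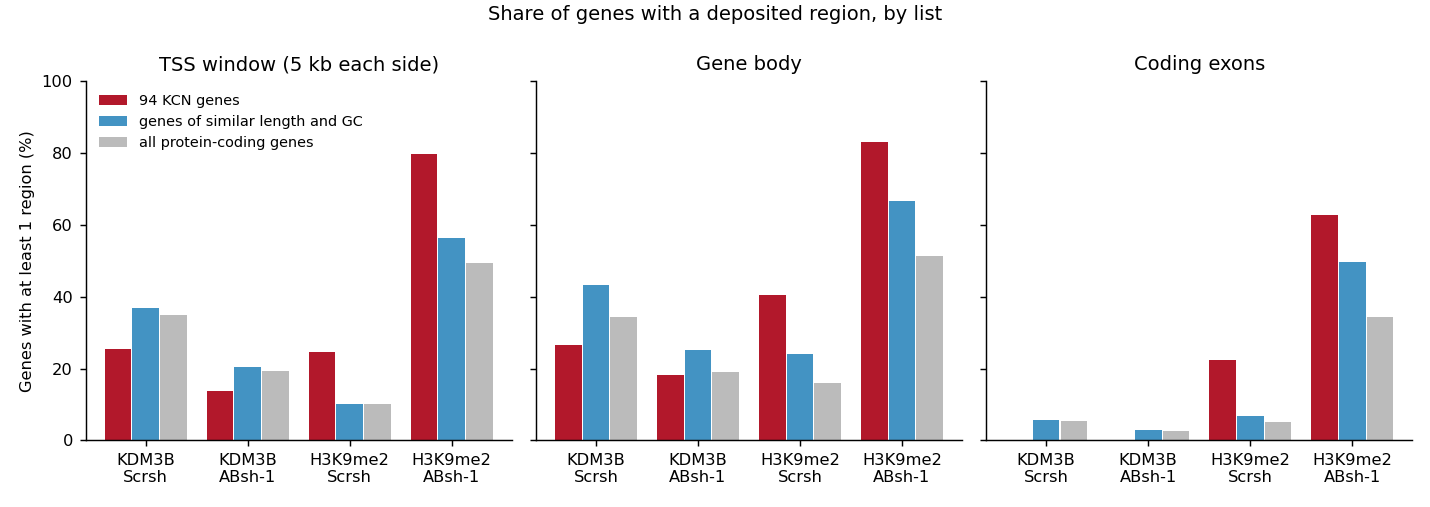
Percent of genes with at least 1 deposited region (y axis) in the 4 lists (x axis), for the TSS window, the gene body and the coding exons. Red bars are the 94 KCN genes, blue bars genes of similar length and GC content and grey bars all protein-coding genes. The red bars stand above the others for H3K9me2 and below them for KDM3B in every panel.

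Counted along whole gene bodies, which include most of the TSS windows, H3K9me2 was again more frequent in the members, and KDM3B was less frequent than in similar genes. H3K9me2 regions lay in 38 members (40.4%) in Scrsh, where the background was 15.9% and genes of similar length and GC content gave 24.1%. They lay in 78 members (83.0%) in ABsh-1, where the background was 51.2% and similar genes gave 66.7%. KDM3B regions lay in 25 bodies (26.6%) in Scrsh, against 34.3% of all genes and 43.3% of similar genes. In ABsh-1 they lay in 17 (18.1%), against 19.1% and 25.3%. Cut to equal numbers of regions the 2 H3K9me2 lists marked 38 (Scrsh) and 35 bodies (ABsh-1), which is 40.4% and 37.2% of the members, whereas the share of all genes went from 15.9% to 17.6%. Outside the TSS windows the differences from similar genes were smaller. H3K9me2 lay in the rest of the body in 26.6% of members in Scrsh and 50% in ABsh-1, against 10.2% and 27.6% of all genes, and KDM3B in 20.2% and 10.6%, above the 14.5% and 7.71% of all genes. The members are longer, and against genes with a similar remaining length and GC content (80 members, a comparison added after the values were seen) H3K9me2 stood at 30% and 22.6% in Scrsh and at 57.5% and 54.8% in ABsh-1. KDM3B stood at 22.5% and 30.2% in Scrsh and at 11.3% and 16.6% in ABsh-1.

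H3K9me2 regions covered 0.114% of the 13154404 bp of potassium channel gene bodies in Scrsh and 2.08% in ABsh-1, against 0.0649% and 1.45% over all protein-coding genes. KDM3B regions covered 0.0616% and 0.0258%, against 0.132% and 0.0524%. The median member had 700 bp under H3K9me2 in ABsh-1, and the median protein-coding gene 100 bp. KCNQ1 alone held 28.4% of the covered bases, and without it 1.54% of the bodies was covered. More body bases lay in H3K9me2 regions in ABsh-1 than in Scrsh for 74 members (background 49.3%), and the same number for 17. Fewer lay there for 3 members (background 3%), namely KCND2 with 200 and 100 bp, KCNH7 with 100 and 0 bp and KCNMB2 with 500 and 100 bp. In 21 members more than 10% of the body was covered in ABsh-1 (background 12.3%).

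Around the canonical TSS the members lacked the KDM3B peak of other genes. In Scrsh, KDM3B regions took up 0.426% of the bases less than 500 bp from the TSS, and 3.94% in the other protein-coding genes. In ABsh-1 these values were 0 and 1.69%. The highest H3K9me2 bin in ABsh-1 held 20.9% of the bases in the members, at 800 to 900 bp downstream of the TSS. In other genes it held 6.34%, at 500 to 600 bp. These maxima lie at different places, and that of 94 genes is the less steady. H3K9me2 cover in ABsh-1 was higher downstream than upstream of the TSS within 5 kb in the members (8.44% and 4.15%) and in the other genes (4.22% and 2.66%). In Scrsh the highest H3K9me2 bin of the members held 2.59%, which is a few genes, and that of other genes 0.394%.

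**Figure D2:**
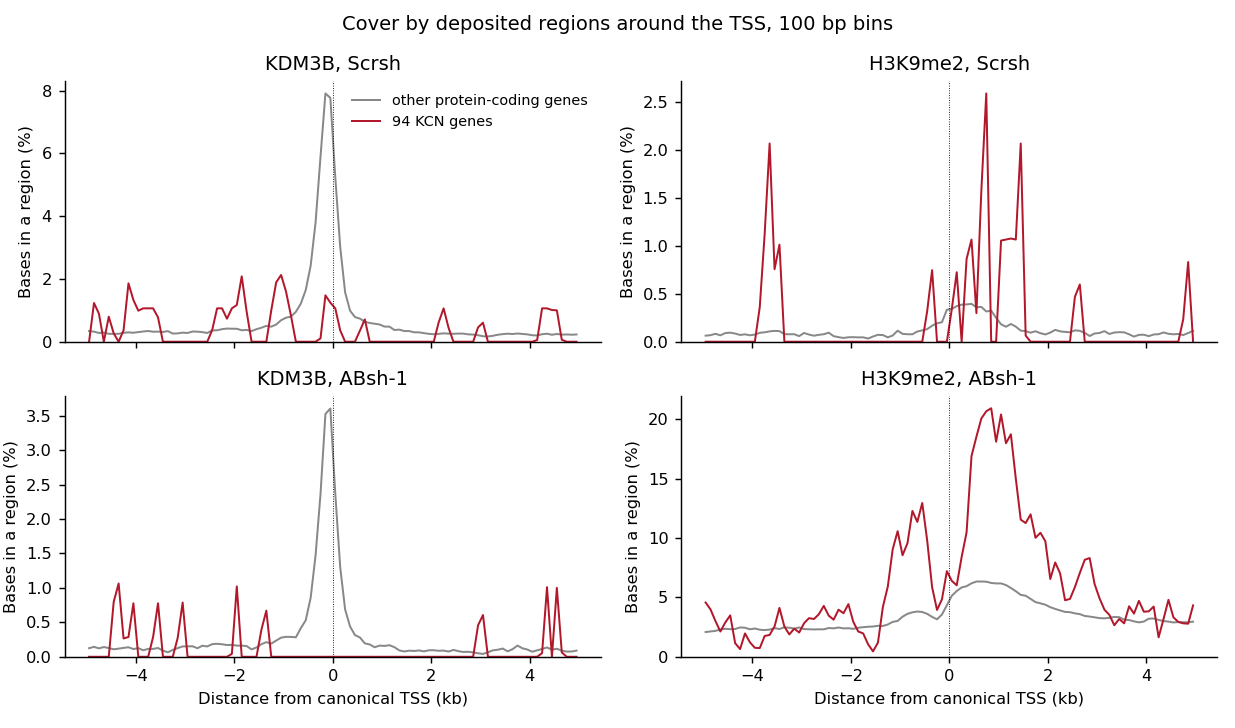
Percent of bases in a deposited region (y axis) by distance from the canonical TSS in kb (x axis, 100 bp bins), for the 4 lists, with the 94 KCN genes in red and 19787 other protein-coding genes in grey. KDM3B of the other genes peaks at the TSS and the red lines stay near 0 there, while H3K9me2 in ABsh-1 reaches 20.9% of bases downstream of the TSS of KCN genes.

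The few KDM3B regions close to a TSS in Scrsh differ in base composition, as 3 of them show (hg19, plus strand, with each CpG in capitals). None of these 3 members had a KDM3B region in the window in ABsh-1.
KCND2, chr7:119912301-119912400, plus strand: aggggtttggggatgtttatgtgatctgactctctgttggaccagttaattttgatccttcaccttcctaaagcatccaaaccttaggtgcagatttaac
KCNH1, chr1:211307601-211307700, plus strand: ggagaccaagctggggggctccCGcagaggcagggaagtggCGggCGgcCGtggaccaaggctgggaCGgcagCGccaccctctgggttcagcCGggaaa
KCNS3, chr2:18060501-18060600, plus strand: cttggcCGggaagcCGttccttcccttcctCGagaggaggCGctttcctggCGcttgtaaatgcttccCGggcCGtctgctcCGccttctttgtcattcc
The regions at KCNH1 and KCNS3 hold 7 and 8 CpGs, and that at KCND2 holds 0.

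Coding exons were a measure added after the values were seen. Without matching for GC content, the H3K9me2 cover of the members stood farther from that of all genes there than in the introns. H3K9me2 regions touched a coding exon of the canonical transcript in 21 members in Scrsh (22.3%), where the background was 5.20% and genes of similar coding length and GC content gave 6.89%. In ABsh-1 they did so in 59 members (62.8%), where the background was 34.4% and similar genes gave 49.8%. KDM3B regions touched no coding exon of any member in either list. Over all genes 5.47% and 2.70% had such a region in Scrsh and ABsh-1, and genes similar to the members 5.58% and 2.92%.

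H3K9me2 covered 2.83% of the members' coding bases in Scrsh and 21.8% in ABsh-1, against 0.481% and 9.31% over all genes. The coding exons of the members were richer in GC (56.6%) than those of all genes (52.3%). Against genes of similar coding length and GC content the mean covered length was 45.3 and 10.9 bp per gene in Scrsh and 349 and 236 bp in ABsh-1. In introns the cover was 0.0789% and 2.01% in the members and 0.0512% and 1.21% over all genes. Intron GC content was 41.2% in the members and 41.4% over all genes, and introns were not compared with similar genes. Potassium channel genes often have long coding exons. Their largest coding exon had a median of 774 bp (306 bp in other genes), and 23 of 94 (24.5%) had a single coding exon (10.8% of other genes). Members with 1 coding exon and members with several had 20.9% and 22.0% of their coding bases covered in ABsh-1, and 6.07% and 2.09% in Scrsh.

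The Scrsh regions in coding exons are shown for 4 members (hg19, plus strand, with each CpG in capitals), because these exons carried the mark without depletion of KDM3A and KDM3B. The region of KCNG4 holds the filter codons listed above, read here on the opposite strand.
KCNG4, chr16:84256101-84256400, plus strand: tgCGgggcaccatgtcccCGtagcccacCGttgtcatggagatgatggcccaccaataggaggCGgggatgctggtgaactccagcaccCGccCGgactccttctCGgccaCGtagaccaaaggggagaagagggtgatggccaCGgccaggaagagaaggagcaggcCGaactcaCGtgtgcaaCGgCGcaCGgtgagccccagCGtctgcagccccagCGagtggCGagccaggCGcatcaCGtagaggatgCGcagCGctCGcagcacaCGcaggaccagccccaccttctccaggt
KCNJ11, chr11:17408701-17408800, plus strand: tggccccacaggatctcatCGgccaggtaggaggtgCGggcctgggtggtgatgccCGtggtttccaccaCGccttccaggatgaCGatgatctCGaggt
KCNJ5, chr11:128781401-128781500, plus strand: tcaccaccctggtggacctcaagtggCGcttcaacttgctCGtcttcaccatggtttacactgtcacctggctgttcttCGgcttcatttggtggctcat
KCNV2, chr9:2718101-2718300, plus strand: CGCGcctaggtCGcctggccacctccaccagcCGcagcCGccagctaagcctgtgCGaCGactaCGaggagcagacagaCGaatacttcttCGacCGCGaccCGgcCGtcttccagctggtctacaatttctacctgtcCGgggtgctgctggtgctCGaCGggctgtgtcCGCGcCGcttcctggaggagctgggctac
The KCNV2 region held 20 CpGs in 200 bp and the KCNG4 region 23 in 300 bp, while that of KCNJ5 held 3 in 100 bp. The coding sequence of KCNV2 was 12.2% covered in Scrsh and 73.4% in ABsh-1, that of KCNG4 19.3% and 80.7%, that of KCNJ5 7.96% and 58.2%, that of KCNJ11 8.55% and 46.0% and that of KCNC1 5.70% and 48.6%.

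**Figure D3:**
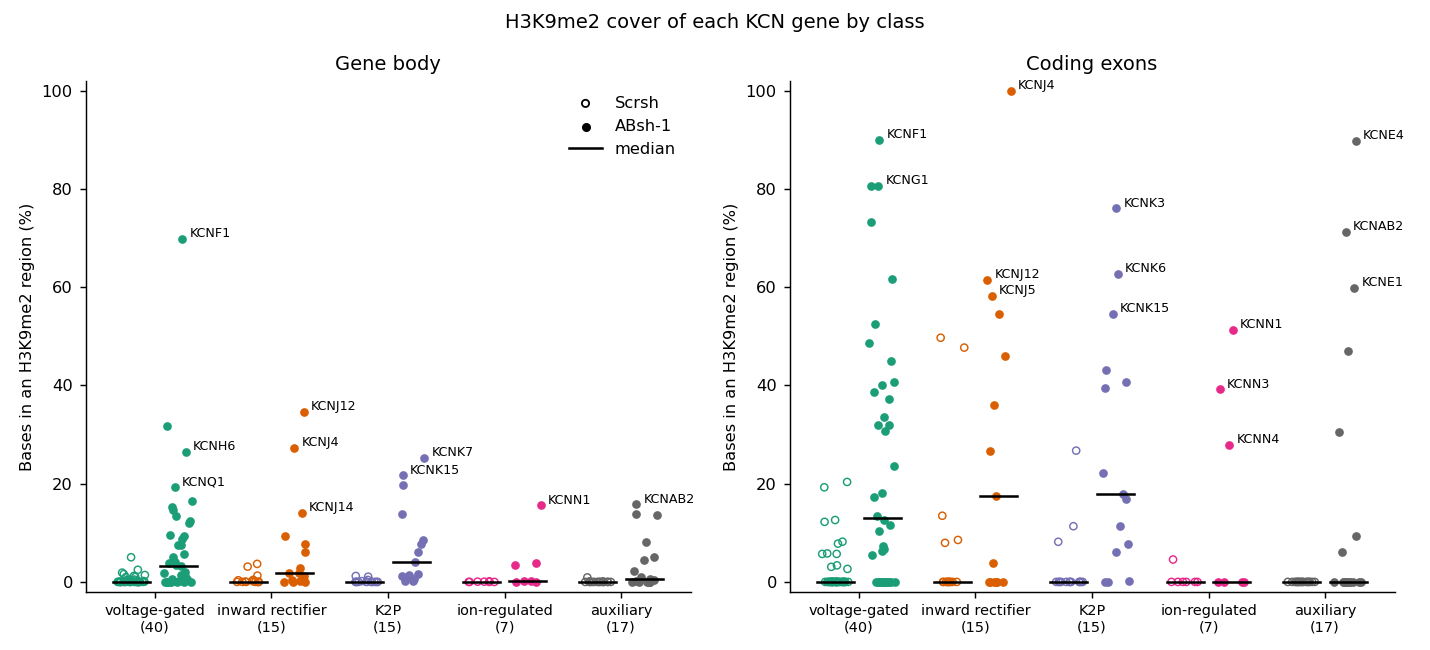
Percent of bases in an H3K9me2 region (y axis) of the gene body (left) and the coding exons (right) of each KCN gene, by class with the number of genes in parentheses (x axis). Open points are Scrsh, filled points ABsh-1 and black bars medians. Coding exons reach 100% in KCNJ4 and 90.0% in KCNF1, and the Scrsh medians of the coding exons are 0 in every class.

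The voltage-gated subunits open on depolarization and end action potentials. H3K9me2 lay in the TSS window of 12 of the 40 in Scrsh (30%) and 32 in ABsh-1 (80%), and KDM3B in 13 (32.5%) and 2 (5%). Over all protein-coding genes the shares were 10.2% and 49.2% for H3K9me2 and 35.0% and 19.2% for KDM3B. KCNF1, a silent subunit that modifies KCNB channels, had the largest covered share of a body of all members. A single region of 1600 bp covered 69.8% of its 2292 bp (chr2:11052060-11054351) in ABsh-1 and none did in Scrsh. KCNG2, another silent subunit, had 1000 and 15500 bp, the latter in 42 regions. KCNH6, an ERG-type channel, had 0 and 6800 bp (26.5% of the body). KCNC1, which lets fast-spiking neurons fire, had 500 bp in 4 regions and 5000 bp in 16.

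KCNQ1 pairs with KCNE1 in the heart and KCNE3 in the colon, and had more bases under H3K9me2 than any other member in ABsh-1. In Scrsh KCNJ12 and KCNQ3 had more, with 1600 and 1300 bp. Its body (chr11:2465884-2870335) held 8 H3K9me2 regions with 1100 bp in Scrsh and 172 regions with 77800 bp (19.2%) in ABsh-1. Of the 172 regions 170 lay in introns, with 49 in intron 11, 40 in intron 15, 37 in intron 1 and 24 in intron 2, and the widest spanned 2200 bp. The imprinted antisense transcript KCNQ1OT1 lies inside the gene (chr11:2618538-2721233), and only 10 of the regions, covering 1.36% of its 102696 bp, fell there. KDM3B had 2 regions in the body in each list, with 400 bp in Scrsh and 300 bp in ABsh-1. Too few genes match KCNQ1 in length and GC content (14) for a comparison.

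**Figure D4:**
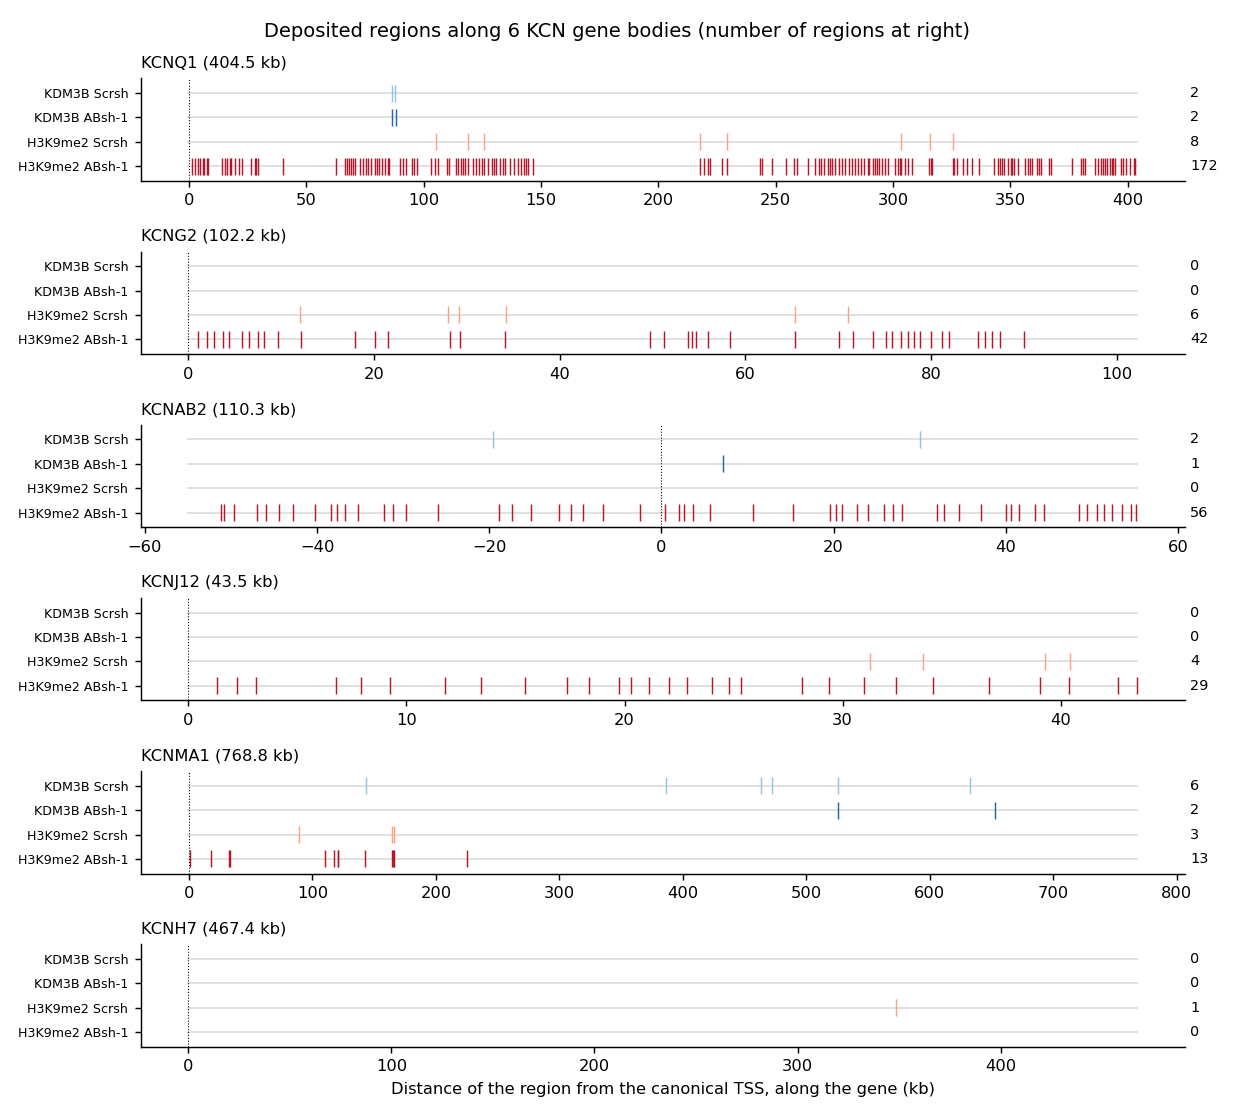
Positions of the deposited regions along 6 KCN gene bodies, as distance from the canonical TSS in kb (x axis), 1 row per list with the number of regions at right; each tick is the centre of 1 region. KCNQ1 has 172 H3K9me2 regions in ABsh-1 with a gap in its middle, KCNG2 42, KCNAB2 56 along the whole body, and KCNH7 0.

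The inward rectifiers pass potassium more easily into the cell than out of it. H3K9me2 lay in the TSS window of 5 of the 15 in Scrsh (33.3%, background 10.2%) and 12 in ABsh-1 (80%, background 49.2%). KDM3B lay in 3 in each list (20%), where the background was 35.0% in Scrsh and 19.2% in ABsh-1. In Scrsh this class had the highest coding cover, 8.90%, against 2.37% in voltage-gated, 2.89% in K2P, 0.554% in ion-regulated and 0% in auxiliary genes. KCNJ12, a channel of heart and skeletal muscle, and KCNJ4, a channel of brain and heart, made most of it. The KCNJ12 coding exon was 49.7% covered in Scrsh and 61.5% in ABsh-1, and that of KCNJ4 47.7% and 100%. Over the bodies KCNJ12 had 1600 and 15082 bp (34.7% of chr17:21279669-21323182 in ABsh-1) and KCNJ4 900 and 7900 bp (27.4% of chr22:38822332-38851205). KCNJ12 is uncertain, because the annotation holds no entry for KCNJ18, its near-identical copy, and reads of both genes may have been placed on it. KCNJ6, a G-protein-gated channel of neurons, went the other way in its coding exons alone. There 13.5% was covered in Scrsh (171 bp) and 0% in ABsh-1, while its body had 400 and 800 bp.

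All 15 K2P channels, which leak potassium at rest, had an H3K9me2 region in the TSS window in ABsh-1 (background 49.2%). In Scrsh 3 did (20%, background 10.2%). KCNK16 and KCNK17 are neighbours whose windows meet, so a region between them counts for both. KDM3B lay in 3 windows in each list (20%), where the background was 35.0% in Scrsh and 19.2% in ABsh-1. Of their coding bases 25.4% were covered in ABsh-1. KCNK3, an acid-sensitive channel, had 76.1% of its coding bases covered and KCNK6 62.7%, and both had 0% in Scrsh. KCNK9, also acid-sensitive, was the K2P channel with most H3K9me2 in Scrsh, 1100 bp in 7 body regions, and had 4200 bp in 16 regions in ABsh-1.

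Among the 7 ion-regulated channels H3K9me2 lay in 1 window in Scrsh (14.3%, background 10.2%) and 5 in ABsh-1 (71.4%, background 49.2%). KDM3B lay in 2 (28.6%, background 35.0%) and 1 (14.3%, background 19.2%). The calcium-activated small-conductance channels KCNN1 and KCNN3 had 0 and 200 bp of the body covered in Scrsh and 7599 and 6800 bp in ABsh-1. KCNN2, of the same subfamily, had 0 bp in both. KCNMA1, the large-conductance channel, had 400 and 1500 bp in a body of 768769 bp.

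The auxiliary genes alter the gating or transport of pore subunits. H3K9me2 lay in 2 of 17 windows in Scrsh (11.8%) and 11 in ABsh-1 (64.7%). KDM3B lay in 3 (17.6%, background 35.0%) and 4 (23.5%, background 19.2%). These H3K9me2 shares were the lowest of the classes, close to 14.3% and 71.4% in the 7 ion-regulated genes. Over all protein-coding genes the shares were 10.2% and 49.2%. The auxiliary share thus stood near the background in Scrsh, where it rests on 2 genes, and above it in ABsh-1. Body cover was lower in the ion-regulated genes (0.0404% and 0.853%) than in the auxiliary genes (0.0461% and 1.06%). KCNAB2, a cytoplasmic beta subunit of KCNA channels, had 0 bp in Scrsh and 17400 bp in 56 regions in ABsh-1. Its body overlaps NPHP4. KCNIP3, a calcium sensor that binds KCND channels, had 0 and 7300 bp. The short coding sequence of KCNE4 was covered to 0% and 89.8% and that of KCNE1 to 0% and 59.9%. KCNE1 is uncertain too, since a near-identical copy, KCNE1B, is known.

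KDM3B was sparse at the members. In the TSS window 16 members had a KDM3B region in Scrsh alone, 8 in both lists, 5 in ABsh-1 alone and 65 in neither. Of the 20163 protein-coding genes 4031, 3018, 855 and 12259 fell in these classes, so most genes at large had none either. Fewer window bases lay in KDM3B regions in ABsh-1 for 23 members (background 28.7%) and more for 5 (background 7.01%). Cut to 8046 regions each, the 2 KDM3B lists marked 13 and 13 members. KCNN4, the intermediate-conductance channel of epithelia and lymphocytes, had most KDM3B bases in Scrsh, 1000 bp, and 300 bp in ABsh-1. KCNIP2, a KCND partner in the heart, had 500 and 300 bp, KCNJ11, the pore of the ATP-sensitive channel of beta cells, 500 and 100 bp, KCNC1 400 and 200 bp and KCNMA1 400 and 0 bp. KCNJ10, a channel of glia, had 200 bp in both lists, and every other member had at most 100 bp in ABsh-1.

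H3K9me2 in ABsh-1 was found in the window of 21 of the 24 members with KDM3B in Scrsh (87.5%) and 54 of the 70 without (77.1%). Over all genes the shares were 53.4% and 47.0%. The 5 members with KDM3B in Scrsh alone and most H3K9me2 window bases in ABsh-1 were KCNAB2 with 12643 bp, KCNK4 with 3400 bp, KCNH3 with 2337 bp, KCNJ5 with 2100 bp and KCNC4 with 2000 bp. Only KCNJ5 of these had H3K9me2 in the window in Scrsh, 100 bp. The windows of KCNAB2, KCNK4 and KCNH3 meet a window of another protein-coding gene, and a region there cannot be given to 1 gene. Over the 71 members whose windows meet no other, KDM3B lay in 15 and 7 windows (21.1% and 9.86%) and H3K9me2 in 16 and 53 (22.5% and 74.6%). Over the 11067 protein-coding genes with such windows the shares were 27.4% and 14.8% for KDM3B and 11.4% and 45.2% for H3K9me2.

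Of the 10 members listed for their use in epithelia, 7 (70%) had an H3K9me2 region in the TSS window in ABsh-1 and 1 (10%) in Scrsh. KDM3B lay there in 4 (40%) in Scrsh and 3 (30%) in ABsh-1. Among the other 84 members the counts were 68 (81.0%), 22 (26.2%), 20 (23.8%) and 10 (11.9%). Over all protein-coding genes the shares were 49.2%, 10.2%, 35.0% and 19.2%. KCNE3, the colonic partner of KCNQ1, was the listed gene with H3K9me2 in Scrsh, with 100 bp in the window and 800 bp in ABsh-1. KCNQ1 had 0 and 10513 window bp, KCNK6 0 and 1000 bp, KCNMA1 0 and 800 bp, KCNK5 0 and 700 bp, KCNN4 0 and 600 bp and KCNK1 0 and 200 bp. KCNE2, KCNJ15 and KCNJ16 had none in either list. KDM3B lay in the windows of KCNE2 (300 and 100 bp), KCNN4, KCNMA1 and KCNK5 (100 and 0 bp), and of KCNJ15 in ABsh-1 alone (100 bp).

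Some long members had no H3K9me2 region in the body in ABsh-1. Of the members over 100 kb these were KCNH5, KCNH7, KCNH8, KCNIP4, KCNJ15, KCNN2 and KCNU1. Their bodies ran from 151637 bp in KCNJ15 to 1220167 bp in KCNIP4, and only KCNH7 had a region, of 100 bp, in Scrsh. Of the genes similar to each in length and GC content, between 41.0% (KCNU1) and 65.9% (KCNN2) had such a region in ABsh-1. Many similar genes thus lacked one too. Over all members 15 had no H3K9me2 region in body or window in either list (background 41.4%) and 11 had no region of any kind (background 24.8%), so members without a region were rarer than such genes at large. The GC content of these 7 bodies lay between 35.0% in KCNH7 and 41.1% in KCNJ15.

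Base composition moved with the mark across the members. In ABsh-1 the covered share of the body and its GC content had a Spearman rho of 0.80 over the 94 members, which share 1 library, and of 0.58 over 20050 other genes. H3K9me2 lay in 11 of 21 members under 40% GC, 16 of 19 from 40% to 45%, 12 of 14 from 45% to 50%, 21 of 22 from 50% to 55% and all 18 above. Other protein-coding genes had it in 26.0%, 39.5%, 55.2%, 73.1% and 78.7% in the same classes, so a larger share of members had at least 1 region within each class. Length differed as well, with a median body of 383447 bp in the members under 40% GC and 64801 bp in the other genes. The covered share of the bodies was lower in the members than in other genes under 40% GC (0.0574% and 0.0788%) and from 45% to 50% (1.81% and 1.93%), and higher in the remaining classes (0.404% and 0.335%, 13.4% and 6.33%, and 20.2% and 17.2%). In Scrsh the members' counts were 8, 10, 7, 7 and 6, against 17.1%, 17.0%, 17.8%, 14.8% and 10.8% of other genes, with no rise toward high GC. The covered share did rise, from 0.0233% under 40% GC to 0.636% at 55% and over in the members and from 0.0315% to 0.205% in other genes. The part of base composition in the difference between the lists was not tested.

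The 5 members within 5 Mb of a chromosome end, KCNQ1 and KCNG2 among them, had 19.8% of their body bases covered in ABsh-1. In 2535 other genes as near an end it was 6.33%. The pooled share of the 5 rests mainly on KCNQ1, the longest of them (404452 bp), which had 19.2% covered. The 89 members farther away had 1.24% covered, against 0.996% in other genes. This split was chosen after the values were seen.

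Other channel families were counted for context. There were 44 listed genes for sodium, calcium and HCN channels and potassium channel partners. H3K9me2 lay in the window of 9 in Scrsh (20.5%) and 31 in ABsh-1 (70.5%), and KDM3B in 14 (31.8%) and 6 (13.6%). In the members these shares were 24.5%, 79.8%, 25.5% and 13.8%, and over all protein-coding genes 10.2%, 49.2%, 35.0% and 19.2%. The 18 calcium channel genes had H3K9me2 in 6 (33.3%) and 17 windows (94.4%). The 13 sodium channel genes had it in 2 (15.4%) and 6 (46.2%). A raised H3K9me2 share was thus not particular to the potassium channel genes.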

How the data were processed

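ChIP-seq regions for KDM3B and H3K9me2 in HCT116/Scrsh and HCT116/ABsh-1 were analysed (1 library each); the input libraries were used only by the authors. Per the study's methods and the submitters' processing notes, reads were aligned with Bowtie to hg19 (version not given in the sources used here), unique reads were kept, and 100-bp windows enriched over input were called by a Poisson p. The deposited lists hold positions and a whole-number score, whose meaning the authors do not give; it was used only to rank regions. Unique mapping drops reads shared by near-identical genes, and calling each library alone lets list length vary with depth.

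Genes came from GENCODE release 44 on hg19. A TSS window joined the 5000 bp before and after each TSS of a gene, and a region counted with 1 shared base. Similar genes lay within a factor of 1.5 in length and 2 percentage points in GC content (at least 20 genes per member); their share is the mean over members. Members and lists were chosen with earlier results of these data known; some genes of the family are not reported here. A rule set which members could be given with values. It took the 10 members with most H3K9me2 body bases and the 5 with the highest covered share in HCT116/ABsh-1. Members with H3K9me2 in HCT116/Scrsh and the 5 with most KDM3B window bases per list were included. So were the 5 with KDM3B in HCT116/Scrsh alone and most H3K9me2, an epithelial list of 10 and members over 100000 bp without H3K9me2. Not all are given with values. Of the members with H3K9me2 in HCT116/Scrsh, those with a window region are listed, and those with a body region alone are named only in part. Coding exons, filter codons and chromosome ends were added after the values were seen. Cover and overlap were tested on simulated data (2000 genes, 0 wrong). Python 3.11.15, numpy 2.4.6, pandas 2.3.3 and matplotlib 3.10.9 were used.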

Additional observations from a re-analysis of the deposited data

How the results depend on the processing

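No paired analysis was possible because the labels give no replicate numbers and each list is 1 library. Over 22 results and 124 alternative values 88 stayed within 1.5 times a count or the interval of a share. Differences between members and similar genes kept their direction in every alternative run, but their size fell for H3K9me2 windows in HCT116/Scrsh from 14.5 to 7.88 percentage points with the canonical TSS and for its coding exons from 15.4 to 9.07 with the top 50% of scores. In bodies without TSS windows, compared with similar genes after the data were seen, the H3K9me2 excess was 7.35 points (HCT116/Scrsh) and 2.68 (HCT116/ABsh-1), and the KDM3B difference -7.67 and -5.39. With equal numbers the H3K9me2 body counts changed order (38 and 35). With the top 50% of scores, KDM3B windows held 14 and 5 members (HCT116/Scrsh, HCT116/ABsh-1) and bodies 14 and 8, and body cover was 0.0380%, 0.0144%, 0.0821% and 1.78% (KDM3B then H3K9me2). With equal numbers of regions, KDM3B in HCT116/Scrsh lay in 13 windows and 13 bodies (0.0357% cover) and H3K9me2 in HCT116/ABsh-1 in 29 windows and those 35 bodies (0.914%), and the window excess over similar genes was 8.88 percentage points. With 2 kb windows the counts were 15, 5 and 15 for KDM3B in both lines and H3K9me2 in HCT116/Scrsh, and with the canonical TSS 8 for KDM3B in HCT116/ABsh-1 and 14 for H3K9me2 in HCT116/Scrsh. Unshared windows, added after the data were seen, gave 15 and 7 for KDM3B. Merging gave 0.137% and 3.43% H3K9me2 cover. Bodies without TSS windows gave 10 members for KDM3B in HCT116/ABsh-1, 25 and 47 for H3K9me2, and cover of 0.0449% for KDM3B in HCT116/Scrsh and 0.0882% and 1.37% for H3K9me2. Pore-forming subunits alone gave 0.136% and 2.42%. Without the GC limit the excess in HCT116/ABsh-1 was 26.3 points in bodies and 26.8 in coding exons (added after the data were seen). Cuts by score hold fewer regions by construction; for the other shifts the cause was not tested. Depth is unknown, so an absent region is not an absent mark.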
